A study of Homo sapiens with 4 samples.

Results

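Histones are the proteins that DNA is wrapped around. The core histones H2A, H2B, H3 and H4 form the nucleosome and the linker histone H1 binds the DNA between nucleosomes. The annotation of the array pairs 85 of its 22277 probe sets with core or linker histone genes and with no other kind of gene, apart from histone pseudogenes. Of these, 61 belong to the replication-dependent genes, which lie in clusters, and 24 to the replacement variants. The members were taken from gene symbols, and histone genes were chosen for description with earlier results of these data known. The members list 75 histone genes, 60 of clusters and 15 of variants. On 1 or more arrays 58 members reached a signal of 20, 36 of cluster genes and 22 of variants, and 44 of them were above this level on all 4 arrays.

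Cluster genes are transcribed mainly while DNA is replicated, and their mRNAs usually end in a stem-loop bound by SLBP in place of a poly(A) tail. Replacement variants such as H2A.Z, H2A.X, macroH2A and H3.3 are made throughout the cell cycle from ordinary polyadenylated mRNAs and are placed into chromatin by dedicated chaperones. The labelled RNA of these arrays was primed with oligo-dT, per the study's methods, so that cluster genes were read only through transcripts with a poly(A) tail or an internal stretch of adenines. Levels given below are thus those of such transcripts, and total histone mRNA was not measured.

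The cells were LAPC4, an established line of androgen-responsive human prostate cancer, and each condition was read on 1 Affymetrix U133 array. They grew for 72 hours in medium with 10% fetal calf serum (FCS) supplemented with 100 pM methyltrienolone, a synthetic androgen, or with 10% charcoal stripped serum (CSS), which is depleted of androgens. Under each serum, 1 array was of cells infected with a GFP vector, called control here, and 1 of cells infected with an shRNA against β-TrCP, the substrate receptor of a ubiquitin ligase, encoded by BTRC and FBXW11. The study's Results describe instead a doxycycline-inducible shRNA vector that was left uninduced in the control, and its Methods the vector alone, so that effects of doxycycline or of the vector cannot be told apart from those of the knockdown. All cells thus carried a lentiviral vector, and CSS differs from the FCS medium in serum and in methyltrienolone at once. With 1 array per condition there was no replicate and no p-value for a comparison of 2 conditions, and the number of arrays limits the precision.

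FBXW11, the brighter shRNA target, had log2 signals of 8.02 (control, FCS), 8.19 (control, CSS), 5.02 (shRNA, FCS) and 4.68 (shRNA, CSS). The array of shRNA cells in CSS stood apart. Its correlation with the other arrays was between 0.934 and 0.936 while these correlated with each other at 0.979 to 0.989, and the log2 ratios of all probe sets had a robust SD of 0.529 to 0.563 in comparisons that used it against 0.235 and 0.240 in those that did not. The log2 difference between the 3′ and 5′ probe sets of ACTB, a sign of RNA quality, was 1.03 on the array of control cells in CSS and 0.41 to 0.45 on the others. Of 9 luminal prostate markers 7 were paired and measured, with a summed signal of 4965 to 6770 on the 4 arrays. They did not run one way. In control cells KLK2 and KLK3, androgen-regulated genes of prostate secretions, were higher in CSS by 0.70 and 0.73 on the log2 scale and TMPRSS2, another androgen-regulated gene, differed by -0.48, and between shRNA and control cells in CSS KLK2 differed by -2.41 and KLK3 by -1.37. Of 6 fibroblast markers 4 passed the filter, with a summed signal of 91.9 to 94.3 on 3 arrays and 130 in shRNA cells in CSS, and of 6 leukocyte markers 3 passed, with 60.0 on 3 arrays and 71.6 in shRNA cells in CSS, where CD3E and LCP2 were at the floor on every array.

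Most promoters of H2A and H2B cluster genes carry an octamer motif that those of the other families mostly lack, and 10 of 11 H2B probe sets were lower in CSS. For this reason the stretch of 160 bases before the start of 4 H2B genes with the octamer is shown, from RefSeq on GRCh38.p14. That of H2BC5, an H2B gene without it in this stretch, is added. H1-2 and the variant H2AZ1, which lack it too, are shown for contrast in the motif only. Capitals mark the octamer ATTTGCAT, the box CCAAT and the box TATAAA, or their reverse complements ATGCAAAT, ATTGG and TTTATA.
H2BC12 (chr6:27146859-27147018, minus strand): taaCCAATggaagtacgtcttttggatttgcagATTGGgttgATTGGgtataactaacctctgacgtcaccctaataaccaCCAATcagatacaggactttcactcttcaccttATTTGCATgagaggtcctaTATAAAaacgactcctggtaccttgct
H2BC9 (chr6:26251454-26251613, plus strand): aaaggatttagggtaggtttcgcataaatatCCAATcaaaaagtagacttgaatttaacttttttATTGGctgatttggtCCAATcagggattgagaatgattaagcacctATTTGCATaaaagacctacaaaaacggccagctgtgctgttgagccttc
H2BC6 (chr6:26183601-26183760, plus strand): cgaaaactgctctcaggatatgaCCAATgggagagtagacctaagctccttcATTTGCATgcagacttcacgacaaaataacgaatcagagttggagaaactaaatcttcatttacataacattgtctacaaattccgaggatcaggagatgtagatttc
H2BC21 (chr1:149886683-149886842, minus strand): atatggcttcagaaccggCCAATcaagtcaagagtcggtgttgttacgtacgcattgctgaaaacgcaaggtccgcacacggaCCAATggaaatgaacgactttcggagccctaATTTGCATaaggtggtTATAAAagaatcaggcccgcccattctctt
H2BC5 (chr6:26157961-26158120, plus strand): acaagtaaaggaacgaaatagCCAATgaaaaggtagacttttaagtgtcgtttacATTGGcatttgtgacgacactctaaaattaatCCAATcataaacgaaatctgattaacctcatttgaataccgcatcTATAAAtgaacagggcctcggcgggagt
H1-2 (chr6:26056471-26056630, minus strand): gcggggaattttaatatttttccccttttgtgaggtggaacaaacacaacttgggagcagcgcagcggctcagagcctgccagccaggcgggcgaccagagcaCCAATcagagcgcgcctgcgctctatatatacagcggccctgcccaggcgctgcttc
H2AZ1 (chr4:99950276-99950435, minus strand): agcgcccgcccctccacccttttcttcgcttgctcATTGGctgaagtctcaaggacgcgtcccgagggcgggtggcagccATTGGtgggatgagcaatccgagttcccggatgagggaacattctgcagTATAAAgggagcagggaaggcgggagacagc

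The octamer began 46 bases before the start in H2BC12 and H2BC21, 49 bases before it in H2BC9 and 108 bases before it in H2BC6. It is the known recognition sequence of the transcription factor OCT1. The 250 bases before the start were searched on both strands for the 69 of 75 histone genes with a promoter window, and for all 27305 genes that have one. The octamer was present in 12 of 15 H2B cluster genes (80.0%) and 8 of 13 H2A cluster genes (61.5%), in none of 5 H1 and 13 H4 cluster genes and in 1 of 8 H3 cluster genes, against 2.03% of all genes. Of 15 variant genes it was in 1, an H3 variant. H2A and H2B genes often lie head to head and share a promoter, so that their windows can hold the same bases. CCAAT was present in every H1, H2A, H2B and H3 cluster gene searched and in 3 of 13 H4 cluster genes, against 37.0% of all genes, and TATAAA was in 3 of 5 H1, 9 of 13 H2A, 11 of 15 H2B, 6 of 8 H3 and 7 of 13 H4 cluster genes, against 13.0%. These matches describe letters and not binding, and a link between the octamer and the serum differences was not tested. H2BC21, which holds the octamer, was the 1 exception among H2B probe sets in both serum comparisons below. Both probe sets of H2BC5, which lacks it in the stretch shown, were lower in CSS. H1-2, which also lacks it, was lower in CSS by log2 differences of -0.95 in control cells and -0.70 in shRNA cells.

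The first question was how histone transcripts differed between stripped serum and full serum with androgen. In control cells 23 of the 29 measured cluster probe sets were lower in CSS than in FCS, where 48.8% of all probe sets were lower, with a median log2 difference of -0.24 against 0.01 over all probe sets. A probe set counts as measured where it lies above the floor, a signal of 20 or log2 4.32, on both arrays. No member passed a 2-fold difference, which 0.435% of all probe sets did in either direction. Of the cluster probe sets 13 were lower by more than the local spread, the robust SD among the 1000 probe sets of most similar signal, and none was higher by more than it, where 15.9% and 15.7% of all probe sets were. Over the 18 measured cluster probe sets that list 1 gene 14 were lower, with a median of -0.18. Over the 11 whose identifiers do not end in _s_at or _x_at, which mark shared or cross-hybridizing probes, the median was -0.028 and 7 were lower, but these 11 hold only 2 of the 11 H2B probe sets. The arrays of this comparison also differ in the ACTB value given above, whose part in the result was not tested.

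**Figure D1:**
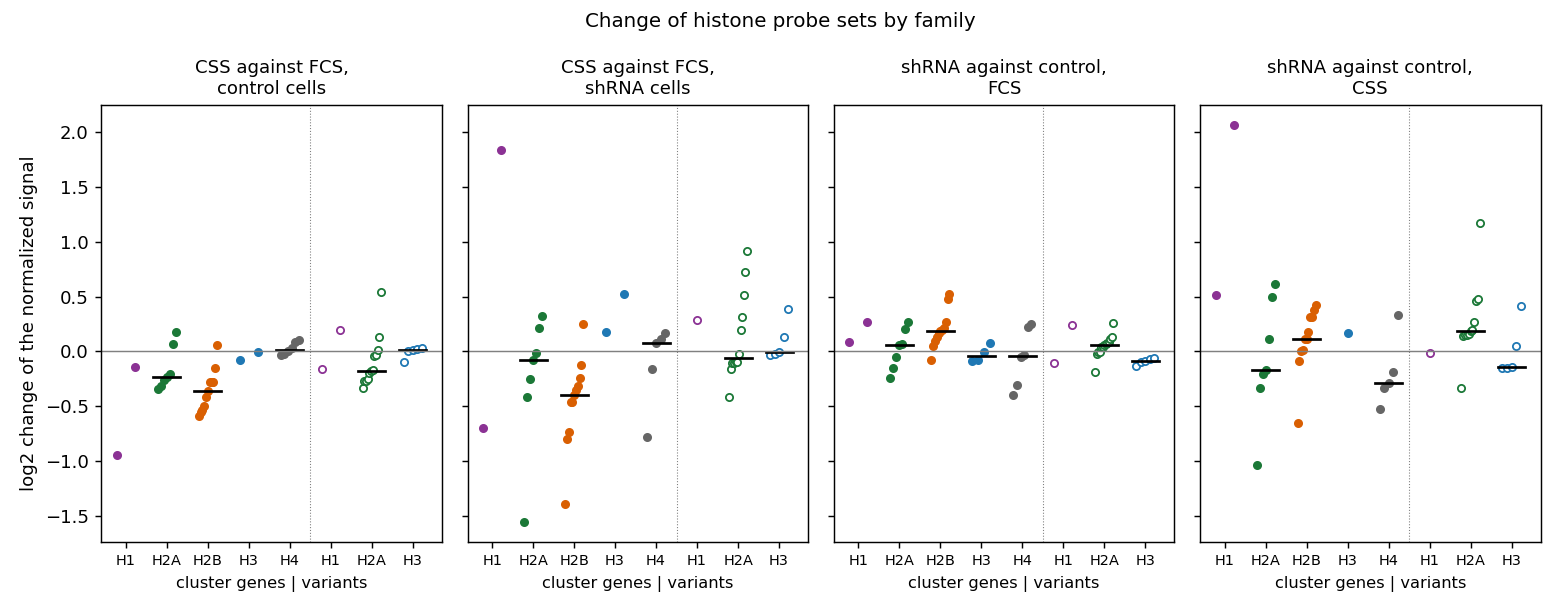
Log2 difference of the normalized signal (vertical axis) of each histone probe set above the floor on both arrays, by histone family, in the 4 comparisons of 1 factor (1 array per condition), with cluster genes as filled and variants as open points and black lines at medians of families with at least 3 points. H2B cluster probe sets lie mostly below 0 in both serum comparisons, with medians of -0.36 and -0.40, and mostly above 0 with the shRNA. For the shRNA in CSS this turns to 8 of 11 below 0 in the values as deposited. There the H2B median was -0.14 and the median of all probe sets -0.30. Not drawn is 1 cluster probe set that lists H2A and H3 genes together.

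H2B, the core histone that pairs with H2A, had the most measured cluster probe sets. Of these 11, 10 were lower in CSS in control cells, with a median of -0.36 and a range from -0.59 to 0.05, and 8 were lower by more than the local spread. In shRNA cells, on another pair of arrays, 10 of 11 were again lower, with a median of -0.40 and a range from -1.39 to 0.25. There 3 of the 11, and 6 of 28 cluster probe sets, were lower by more than the local spread, where 12.9% of all probe sets were. The same 10 probe sets were lower in both comparisons, where 28.7% of all 11397 probe sets measured on the 4 arrays were. The 2 H2B probe sets without the _s_at or _x_at ending, 209806_at of H2BC12 and 210387_at of several H2B genes, were among these 10, and 6 of the 7 that list 1 gene were lower in control cells. H2B probe sets are no independent measurements, because paralogs in the clusters are nearly identical in sequence.

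H2BC12, a histone gene whose polyadenylated transcripts are well known, had log2 signals of 8.83 in control cells in FCS, 8.46 in control cells in CSS, 9.31 in shRNA cells in FCS and 8.57 in shRNA cells in CSS. Both CSS arrays were thus below both FCS arrays, by log2 differences of -0.36 in control cells and -0.73 in shRNA cells, with local spreads of 0.32 and 0.31. H2BC12L, an H2B gene of closely related sequence, had 7.89, 7.29, 8.41 and 7.61 in this order. Its differences between the sera were -0.59 and -0.80, and again both CSS arrays were the lower. H2BC5 was read by 2 probe sets that disagreed in size. The brighter, 222067_x_at, had 7.11, 6.61, 7.16 and 7.03, with differences of -0.50 in control cells and -0.12 in shRNA cells, and the dimmer, 209911_x_at, had differences of -0.28 and -0.46.

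H2BC6 had 6.19 in control cells in FCS, 5.65 in control cells in CSS, 6.39 in shRNA cells in FCS and 6.03 in shRNA cells in CSS, and H2BC9 had 5.49, 5.07, 5.70 and 5.24. Both genes carry the octamer shown above, as does H2BC21. In H2BC6 and H2BC9 each CSS array was below the FCS array of the same cells. In control cells the differences were -0.53 and -0.42, beyond local spreads of 0.27 and 0.21. In shRNA cells they were -0.36 and -0.46, within local spreads of 0.78 and 1.04. H2BC21, which lies on chromosome 1 apart from the main cluster on chromosome 6, had 5.42, 5.47, 5.34 and 5.59. It was the only H2B probe set higher in CSS in both backgrounds, by 0.05 and 0.25, within its local spreads of 0.24 and 1.03.

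**Figure D2:**
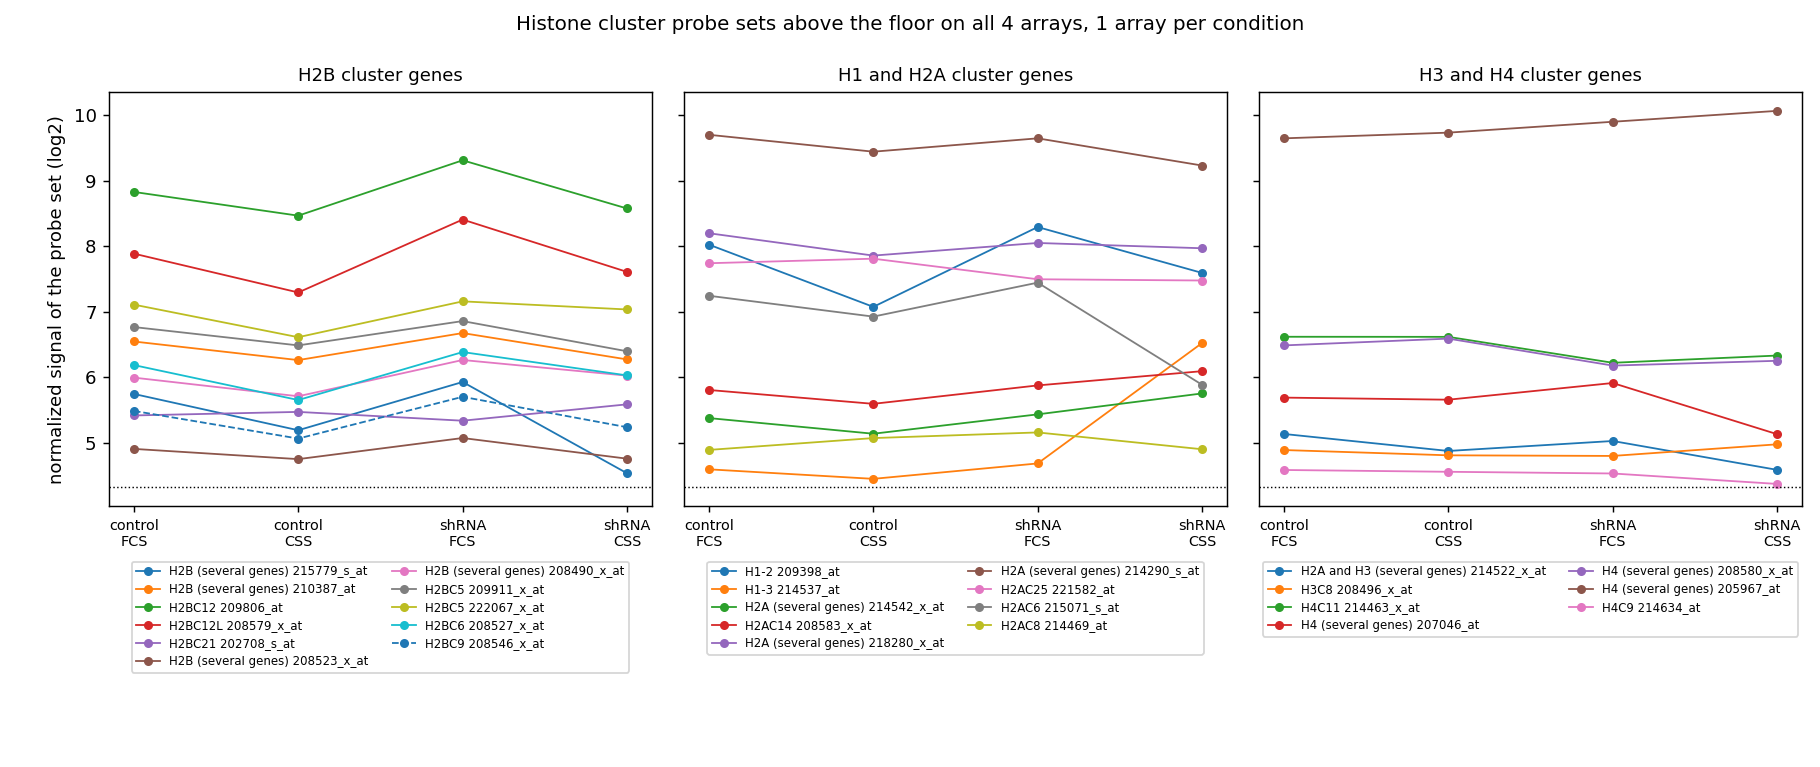
Normalized log2 signal (vertical axis) of each cluster probe set above the floor on all 4 arrays, 1 array per condition along the horizontal axis, in panels for H2B, for H1 and H2A, and for H3 and H4 with the probe set that lists H2A and H3 genes; lines join values of 1 probe set and the dotted line is the floor at 4.32. Most H2B lines lie lower in CSS than in FCS of the same cells, as does H1-2, while H1-3 stands at 6.52 in shRNA cells in CSS against 4.45 to 4.69 elsewhere and H2AC6 is at 5.89 there.

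Among linker histones, H1-2, a major somatic linker histone that helps to compact chromatin, had log2 signals of 8.02 in control cells in FCS, 7.07 in control cells in CSS, 8.29 in shRNA cells in FCS and 7.59 in shRNA cells in CSS. The 2 CSS arrays were the lowest, and the difference of -0.95 in control cells, 1.93-fold lower, was the largest of any member in that comparison, with a local spread of 0.28. In shRNA cells it was -0.70. H1-3, another somatic linker histone, was close to the floor on 3 arrays, at 4.60 in control cells in FCS, 4.45 in control cells in CSS and 4.69 in shRNA cells in FCS, and at 6.52 in shRNA cells in CSS. H1-1 and H1-4 were at the floor on the same 3 arrays and at 5.09 and 4.79 in shRNA cells in CSS, which are bounds only.

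Low signals stood higher on that array among all probe sets. The share of all probe sets under a signal of 20 was 35.0% there against 41.7% to 42.0% on the others, and 3 cluster probe sets were above the floor on that array alone. For H1-3 the log2 difference between sera in shRNA cells was 1.84, 3.57-fold higher, with a local spread of 0.97 among probe sets of similar signal, and 1.51 in the values as deposited.

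Cluster H2A probe sets were lower in CSS in 5 of 7 cases in control cells, with a median of -0.24. In shRNA cells 5 of 7 were lower, with a median of -0.08. Of all probe sets 48.8% and 49.8% were lower in these comparisons. H2AC6, known for polyadenylated transcripts, had 7.24 in control cells in FCS, 6.93 in control cells in CSS, 7.44 in shRNA cells in FCS and 5.89 in shRNA cells in CSS. Its difference was -0.32 in control cells and -1.56, 2.94-fold lower, in shRNA cells, with a local spread of 0.65 in the second. H2AC25, which lies on chromosome 1 and outside the main cluster, had 7.74, 7.81, 7.50 and 7.48 and differed between sera by 0.07 and -0.02. H2AC14 had 5.81, 5.60, 5.88 and 6.09, with differences of -0.21 and 0.22 that ran in opposite directions. The brightest H2A probe set, 214290_s_at, lists several genes and had 9.70, 9.44, 9.64 and 9.23, both CSS arrays being the lower.

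H4 forms a dimer with H3 at the centre of the nucleosome. Of 6 measured H4 probe sets 3 were higher and 3 lower in CSS in control cells, within -0.03 and 0.10, with a median of 0.01, and in shRNA cells 2 of 5 were lower. The brightest, 205967_at, lists 14 H4 genes and had 9.64 in control cells in FCS, 9.73 in control cells in CSS, 9.90 in shRNA cells in FCS and 10.06 in shRNA cells in CSS. It was higher in CSS by 0.09 and 0.17, less than its local spreads of 0.29 and 0.25. H4C11, the brightest H4 probe set of 1 gene, had 6.62, 6.62, 6.22 and 6.33. H4C9 and H4C5, the next, stayed between 4.32 and 4.63.

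The H3 cluster genes were all close to the floor. H3C8 had 4.89, 4.81, 4.80 and 4.98, and H3C2 and H3C3 were at most 4.95 and 4.37 on any array, where differences carry little information. The remaining 27 members were under a signal of 20 on every array. They include H1-5, H2AC4, H2AC15, H2AC16, H2AC17, H2BC3, H2BC11, H2BC13, H2BC14, H2BC15, H2BC17, H3C1, H3C6, H3C7, H3C11, H4C1, H4C4, H4C7 and H4C13 in at least 1 probe set, and the germline variants H3-4 and H2AP.

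In shRNA cells the cluster genes as a class had a median difference between sera of -0.25, with 19 of 28 lower where 49.8% of all probe sets were. There 1 cluster probe set, of H1-3, was at least 2-fold higher and 2 were at least 2-fold lower, H2AC6 and 215779_s_at of several H2B genes, where 6.68% and 6.32% of all probe sets were. The H2B probe set 215779_s_at had 5.75 in control cells in FCS, 5.19 in control cells in CSS, 5.93 in shRNA cells in FCS and 4.54 in shRNA cells in CSS. Over both pairs of arrays 17 of 27 cluster probe sets (63.0%) and 6 of 17 variant probe sets were lower in CSS in both backgrounds, against 28.7% of all probe sets.

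**Figure D3:**
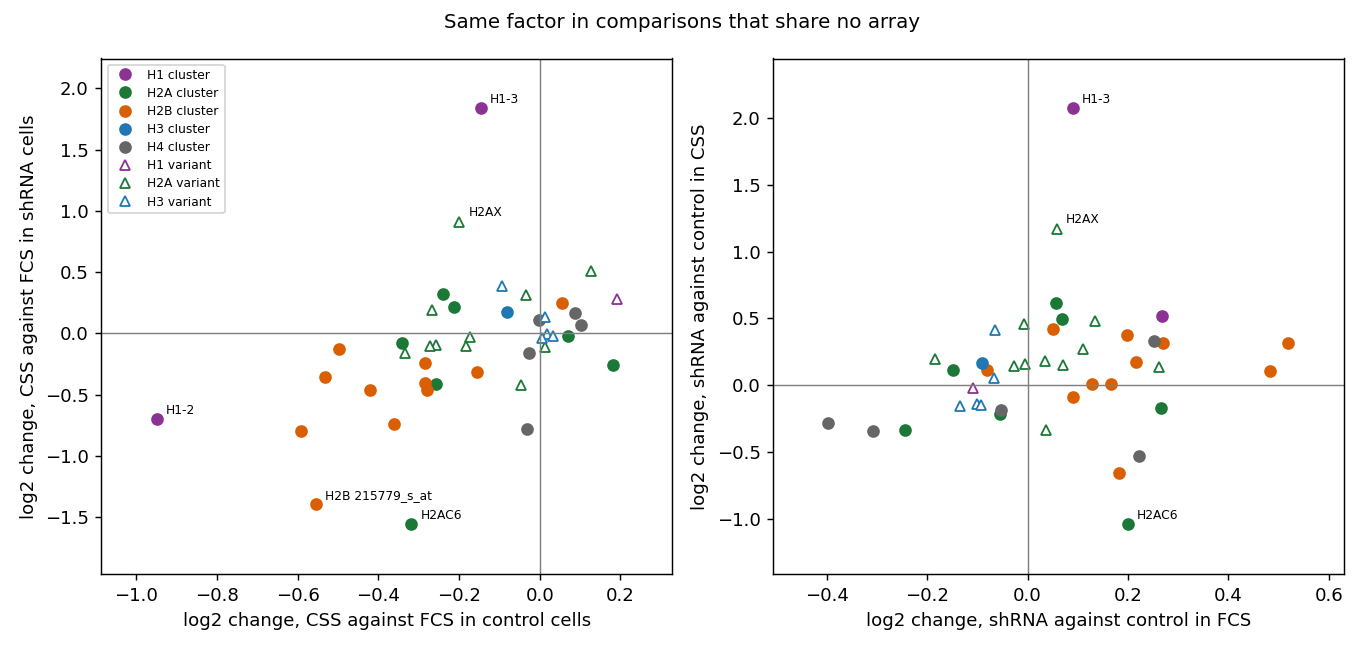
Log2 difference for the same factor in 2 comparisons that share no array, with the serum difference in control cells (horizontal) and in shRNA cells (vertical) at left, and the shRNA difference in FCS (horizontal) and in CSS (vertical) at right; each point is 1 probe set above the floor on all 4 arrays, circles for cluster genes and triangles for variants. In the left panel 10 of 11 H2B points lie below 0 on both axes, and 1 of them, 215779_s_at, is at -1.39 on the vertical axis. H1-3, H2AX and H2AC6 stand out on the vertical axes only, which both use the array of shRNA cells in CSS. The probe set that lists H2A and H3 genes together is not drawn.

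The second question was how histone transcripts differed between β-TrCP shRNA and control cells. In FCS 19 of 31 measured cluster probe sets were higher with the shRNA, where 49.4% of all probe sets were, with a median of 0.08. The median over all probe sets was within 0.01 of 0 in every comparison. No member differed at least 2-fold, which 1.07% of all probe sets did. Of H2B probe sets 10 of 11 were higher, with a median of 0.18 and a range from -0.08 to 0.52, and 2 of these exceeded the local spread, H2BC12L at 0.52 and H2BC12 at 0.48, with spreads of 0.34 and 0.31, where 15.2% of all probe sets did. In CSS 9 of 11 H2B probe sets were higher, where 49.6% of all probe sets were, with a median of 0.12, and none exceeded its local spread, where 13.0% of all probe sets did. In the values as deposited, in which the median of all probe sets in this comparison was -0.30, 8 of the 11 were lower, with a median of -0.14. In both sera, as normalized here, 8 of 11 H2B probe sets and 13 of 27 cluster probe sets were higher, against 27.8% of all probe sets. Each array serves in a serum comparison and in an shRNA comparison, so that the H2B counts for serum and for the shRNA are not independent.

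Within CSS the probe sets of H1-3 and H2AX (212525_s_at) were at least 2-fold higher with the shRNA and that of H2AC6 at least 2-fold lower, where 6.6% and 6.35% of all probe sets were. H1-3 was higher by 2.07, or 4.20-fold, and H2AC6 was 2.06-fold lower with a log2 difference of -1.04. In FCS the same probe sets differed by 0.09 and 0.20. H1-2 was higher with the shRNA in both sera, by 0.27 in FCS and 0.52 in CSS, and H4C11 was lower in both, by -0.40 and -0.28. Only for H1-2 in CSS and H4C11 in FCS were these differences above the local spreads, of 0.44 and 0.30. In CSS in the values as deposited, H1-2 differed by 0.0079 and H4C11 by -0.77, where the median of all probe sets was -0.30.

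With both treatments together, against control cells in FCS, 19 of 28 cluster probe sets were lower where 49.6% of all probe sets were, with a median of -0.23. This comparison shares its control array with the single treatments in control cells and in FCS, so that their values are not independent. Of the cluster probe sets H1-3 was at least 2-fold higher, and H2AC6 and 215779_s_at were at least 2-fold lower, where 6.75% and 6.68% of all probe sets were. The difference of 215779_s_at, -1.21, was within its local spread of 1.23. Of 11 H2B probe sets 9 were lower, with a median of -0.25.

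Replacement variants had medians close to 0 in 3 of the 4 comparisons of 1 factor. In control cells 11 of 19 measured variant probe sets were lower in CSS, where 48.8% of all probe sets were, with a median of -0.05. Without the 4 probe sets of H3.3 that list a pseudogene, this median was -0.16. With the shRNA in FCS 10 were above and 10 below the control, the median being 0.01. In shRNA cells the median difference between sera was -0.01. In CSS the median difference between shRNA and control was 0.15, with 12 of 17 higher, where 49.6% of all probe sets were. In the values as deposited it was -0.079, with 12 of 18 lower, where the median of all probe sets was -0.30. H2A variants replace H2A at promoters or mark DNA breaks. In control cells 9 of their 12 measured probe sets were lower in CSS, with a median of -0.18, and 1 of 5 of H3 variants. Several of these probe sets read the same gene and are no independent measurements. Values of the brightest probe set of each variant are given next.

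H2AZ1, the main H2A.Z gene, which places this variant at promoters, had log2 signals of 11.15 in control cells in FCS, 10.90 in control cells in CSS, 11.26 in shRNA cells in FCS and 11.17 in shRNA cells in CSS. The array of control cells in CSS was the lowest by a small margin, -0.26 against a local spread of 0.20, and its other probe set gave -0.17. H2AZ2, the second H2A.Z gene, had 9.73, 9.40, 9.70 and 9.54, with a difference between sera of -0.33 in control cells, and its other 2 probe sets gave -0.05 and -0.27. In shRNA cells the 3 probe sets of H2AZ2 ran from -0.42 to 0.20, so that they disagreed in direction.

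H2AX, whose protein is phosphorylated at DNA breaks, had 9.12, 9.13, 9.38 and 9.27 in its brightest probe set, 205436_s_at. This probe set differed by 0.14 between shRNA and control in CSS. A dimmer one, 212525_s_at, had 6.00, 5.80, 6.06 and 6.98 and differed there by 1.17, while 213344_s_at had 5.03, 5.00, 5.16 and 5.48 and 212524_x_at was at the floor on every array. The 2-fold difference of H2AX thus rests on 1 of its 4 probe sets, and was 0.66 in the values as deposited.

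The macroH2A genes code for large H2A variants found on silent chromatin. MACROH2A1 had 9.94 in control cells in FCS, 9.67 in control cells in CSS, 9.94 in shRNA cells in FCS and 9.83 in shRNA cells in CSS, and MACROH2A2 had 6.93, 7.05, 6.74 and 7.25. All differences of both were within their local spreads in these probe sets, and a second MACROH2A1 probe set, 214501_s_at, had 8.73, 8.55, 8.80 and 8.70. H2AJ, an H2A variant of mammals, was dim, with 4.76, 5.30, 4.85 and the floor of 4.32, and differed between sera by 0.54 in control cells with a local spread of 0.20. H1-10, a replication-independent linker histone, had 9.23, 9.42, 9.12 and 9.40 and was higher in CSS in both backgrounds, by 0.19 and 0.28, less than its local spreads of 0.30 and 0.29. The testis linker histone H1-6 stayed between 4.32 and 4.76.

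H3.3, the H3 variant deposited outside replication, is encoded by H3-3A and H3-3B, and 4 bright probe sets list both with a processed pseudogene. The brightest of them, 213828_x_at, had 12.50, 12.53, 12.40 and 12.38. In all 4 the difference between sera in control cells was 0.01 to 0.03 and that between shRNA and control in FCS -0.07 to -0.13. H3-3A alone, in the dim probe set 213826_s_at, had 5.05, 4.95, 4.98 and 5.37. A further 4 probe sets that list H3.3 genes with a microRNA were kept apart from the members. Of these 211998_at had 6.39, 7.00, 5.81 and 5.64 and the brightest, 211997_x_at, had 12.09, 11.75, 11.89 and 11.85. Between sera in control cells 211998_at differed by 0.60 and the others by -0.19, -0.20 and -0.34.

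**Figure D4:**
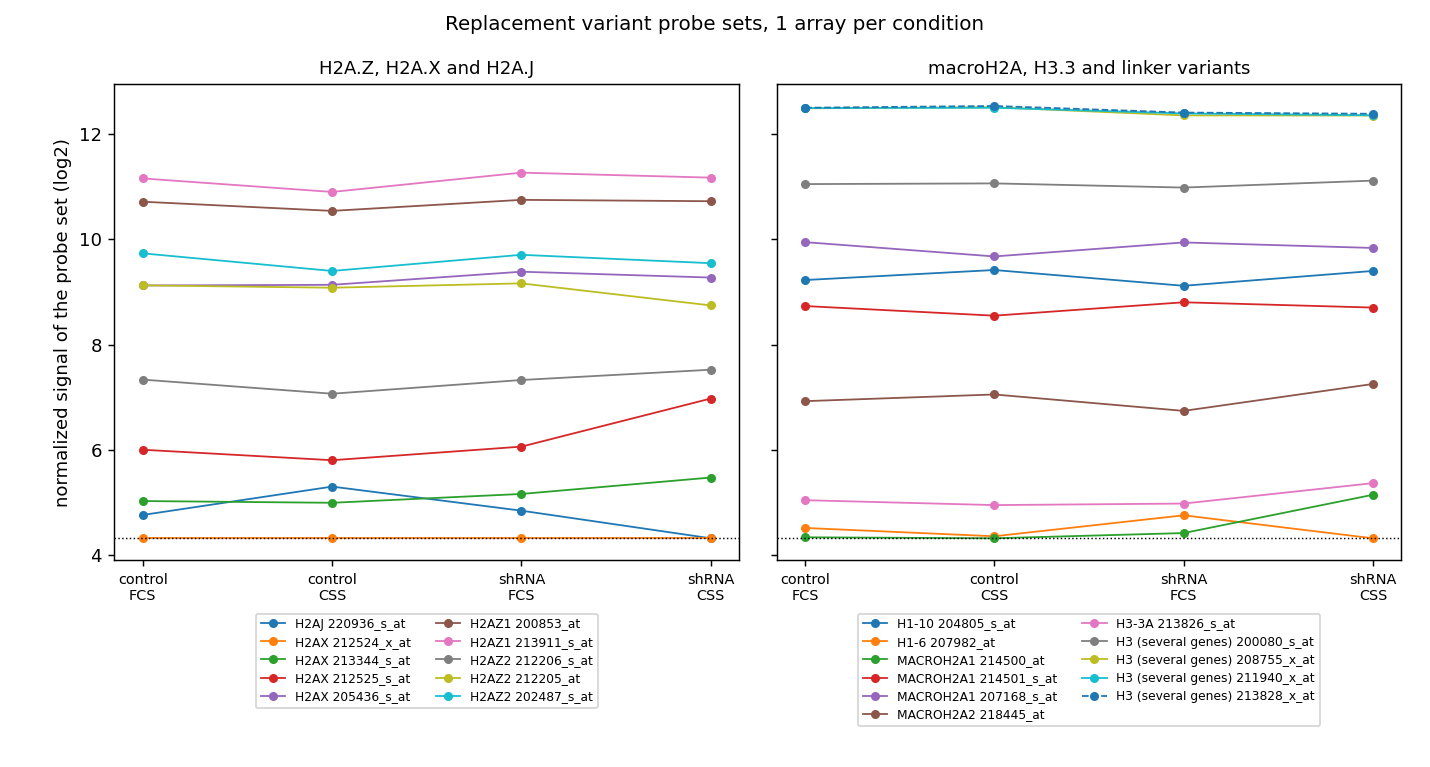
Normalized log2 signal (vertical axis) of the replacement variant probe sets that passed the filter and list 1 gene, with those of H3.3 that list both its genes and a pseudogene, 1 array per condition along the horizontal axis; lines join values of 1 probe set and the dotted line is the floor at 4.32. Bright probe sets of H2AZ1, H2AX, MACROH2A1 and H3.3 run almost level, while 212525_s_at of H2AX reaches 6.98 in shRNA cells in CSS.

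Main effects of serum and of the shRNA were tested with limma over all 4 arrays, in an additive model that takes any interaction as error and leaves 1 residual degree of freedom. No histone probe set was called for either factor, and none of the 15678 probe sets tested was (0.0%), with a lowest Benjamini-Hochberg adjusted p among members of 0.698 for serum and 0.708 for the shRNA. At an unadjusted p under 0.05 stood 5 cluster probe sets lower in CSS and 1 variant probe set, of H1-10, higher, and 2 cluster probe sets higher with the shRNA, where 5.31% and 5.72% of all probe sets stood. The fit holds probe sets at the floor on every array, whose variance is 0. With the 11397 probe sets above the floor on all 4 arrays, a fit added after the data were seen, 3 members were called lower in CSS where 1.61% of all probe sets were. These were H1-2 with a main effect of -0.82 ± 0.22 (SE, limma adjusted p = 0.0092), H2BC12 with -0.55 ± 0.15 (limma adjusted p = 0.0104) and H2BC12L with -0.70 ± 0.21 (limma adjusted p = 0.0395). H1-3 was called higher with the shRNA in that fit, at 1.08 ± 0.35 (limma adjusted p = 0.0490), where 1.83% of all probe sets were, but its differences in the 2 sera were 0.09 and 2.07.

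Genes that act on histone mRNAs were taken from a list of 18, of which 12 were paired and measured. In control cells 10 of them were lower in CSS, where 48.8% of all probe sets were, with a median of -0.16. SLBP, which binds the stem-loop of cluster mRNAs, had 8.16 in control cells in FCS, 7.87 in control cells in CSS, 8.25 in shRNA cells in FCS and 7.63 in shRNA cells in CSS, the 2 CSS arrays being the lower. NPAT, the coactivator of cluster genes at histone locus bodies, had 5.76, 5.60, 5.80 and the floor, and CASP8AP2, which also resides there, had 5.83, 5.40, 5.86 and the floor. CCNE2, a cyclin that drives NPAT through CDK2, had 6.36, 5.57, 6.42 and the floor. The other E cyclin, CCNE1, had 5.76, 5.38, 6.23 and 6.44. With the shRNA in FCS 11 of the 12 were higher, where 49.4% of all probe sets were, with a median of 0.09. The largest difference was 0.95, of ZNF473, a U7 snRNP factor of histone mRNA cleavage. Of the 12, ZNF473, CCNE1, HINFP and NCBP1 were higher by more than their local spreads, where 15.2% of all probe sets were. In CSS 6 of 9 measured were higher with the shRNA and 3 lower, where 49.6% of all probe sets were higher, with a median of 0.23. CASP8AP2, CCNE2 and NPAT had bounds only there, and all 3 bounds were lower.

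Histone chaperones numbered 26, with 25 measured and TONSL at the floor on every array. They split evenly between sera in control cells, 12 higher and 13 lower, with a median of -0.14, where 48.8% of all probe sets were lower. DEK, an H3.3 chaperone, had 9.13 in control cells in FCS, 8.79 in control cells in CSS, 7.90 in shRNA cells in FCS and 7.41 in shRNA cells in CSS. Both shRNA arrays were the lower, by -1.23 in FCS and -1.38 in CSS, each over 3 times its local spread of 0.32 and 0.38. HIRA, which deposits H3.3, had 5.95, 5.77, 6.07 and 4.46, and ATRX, which does so at repeats, had 5.65, 5.74, 5.52 and 4.35. Their values in shRNA cells in CSS lie close to the floor of 4.32. Between shRNA and control in CSS they differed by -1.31 and -1.39, with local spreads of 1.25 and 1.29. CHAF1B, a subunit of the chaperone that deposits new H3 and H4 at replication forks, differed between sera by -0.63 in control cells and -0.52 in shRNA cells. CENPA, the centromeric H3 variant, which is no member by the annotation rule, had 7.16, 6.67, 7.24 and 7.11.

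Most genes of DNA replication were lower in CSS. Of 28 measured from a list of 30, 26 were lower in control cells, with a median of -0.58. In shRNA cells 22 of 24 were lower, with a median of -0.86. Of all probe sets 48.8% and 49.8% were lower in these comparisons. RRM2, a subunit of ribonucleotide reductase, had 9.48 in control cells in FCS, 7.99 in control cells in CSS, 9.56 in shRNA cells in FCS and 7.70 in shRNA cells in CSS. TYMS, which makes thymidylate, had 8.31, 7.57, 8.22 and 6.29 in the brighter of its 2 probe sets. The dimmer one did not run in the same direction in any comparison. GINS2, a part of the replicative helicase, had 6.49, 6.12, 6.60 and 4.59. RFC3, a clamp loader subunit, had 7.69, 7.40, 8.37 and 6.58. In FCS 18 of 28 lay above the control with the shRNA, where 49.4% of all probe sets did, and 10 below it, the median being 0.08. In CSS the direction was the other, with 6 of 24 above the control, where 49.6% of all probe sets were, and 18 below it. The median there was -0.21, and 4 more genes had a bound only. In these bulk cultures fewer cells in S phase and less RNA of these genes per cell cannot be told apart.

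**Figure D5:**
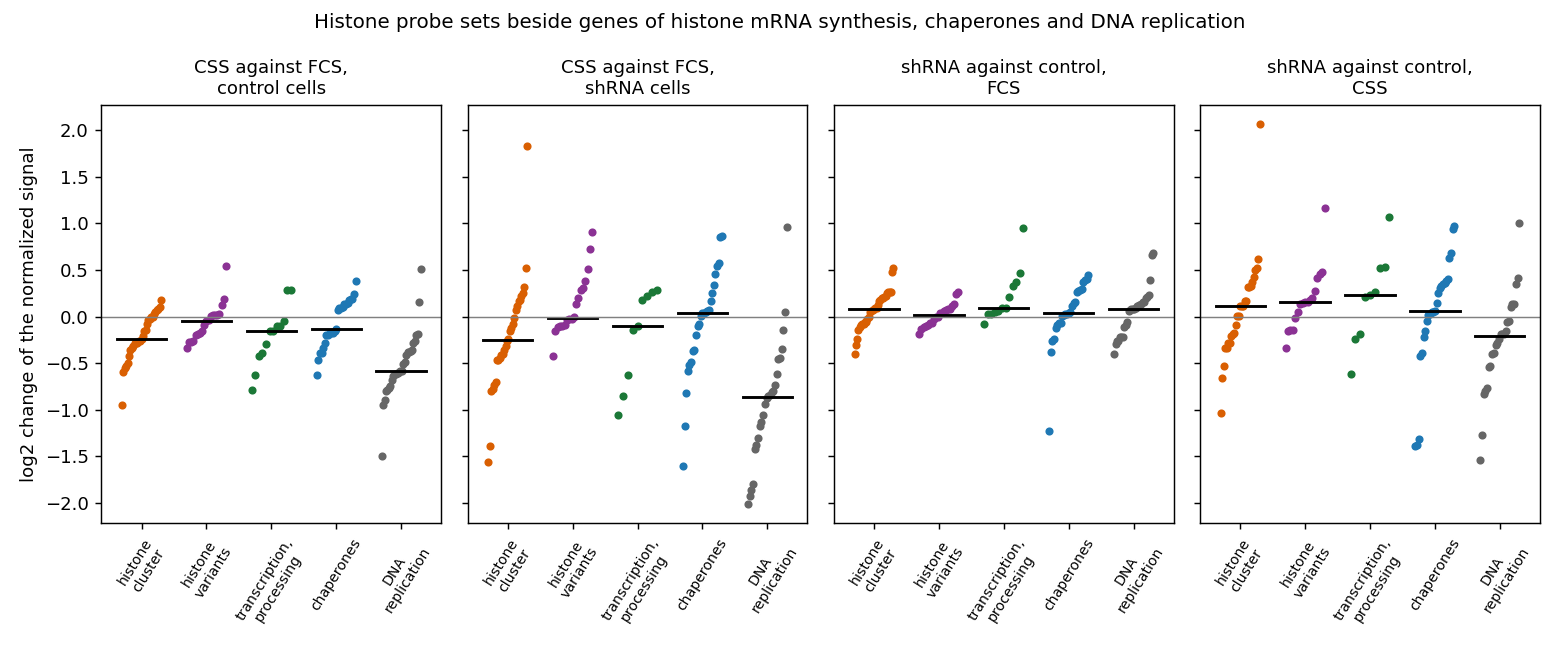
Log2 difference (vertical axis) of histone cluster and variant probe sets beside genes of histone mRNA synthesis and processing, histone chaperones and DNA replication, in the 4 comparisons of 1 factor; each point is 1 probe set (1 per gene for the lists) above the floor on both arrays and black lines are medians. In control cells the medians between sera were -0.24 for cluster probe sets and -0.05 for variants, against -0.58 for DNA replication. Without probe sets that list a pseudogene the variant median was -0.16.

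Cluster genes for which polyadenylated transcripts are known formed a last list, of 6 genes with 5 measured. In control cells 4 of the 5 were lower in CSS, where 48.8% of all probe sets were, with a median of -0.36. In shRNA cells 4 of 5 were lower, where 49.8% of all probe sets were, with a median of -0.70. The lower genes are H1-2, H2AC6, H2BC5 and H2BC12, and the exception was again H2BC21. With the shRNA in FCS 4 of the 5 were higher, where 49.4% of all probe sets were, with a median of 0.20. The list overlaps the members named above and adds no separate evidence.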

How the data were processed

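Total RNA from LAPC4 cells was labelled and read on 4 Affymetrix arrays. The deposited values are log2 signals that the authors computed with MAS5, per the labels, and their methods name a filter at 20, log2 values and quantile normalization. The deposited table holds all 22277 probe sets with unequal distributions of the 4 columns, so filter and normalization were applied here. The 15678 probe sets that reached 20 on an array were quantile normalized as log2 values, and lower values were raised to 20.

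Genes came from the platform annotation, where 19070 probe sets have 1 gene, 1043 have several and 2164 have none. Probe sets that list several histone genes were counted by family and named by no gene. Promoters are the first window of a gene in RefSeq's GRCh38.p14 table. Members and lists were chosen with earlier results of these data known.

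Each comparison is a log2 difference between 2 arrays. The local spread is 1.48 times the median absolute deviation among the 1000 probe sets of nearest mean signal. limma 3.58.1 in R 4.3.3 fitted serum and shRNA with a variance trend, prior degrees of freedom of 1.41 and Benjamini-Hochberg adjustment at 0.05, and was tested on simulated data. Named were all variants, the 3 brightest genes of each cluster family and members that differed 2-fold, and, for each list, the 4 genes with the largest differences at most, with SLBP, NPAT and CENPA. H2BC6, H2BC9 and H2BC21, and 7 promoters, were added after their values were seen. Other steps used Python 3.11.15, numpy 2.4.6, pandas 2.3.3 and matplotlib 3.10.9. Alternatives covered normalization, floor, filter, threshold, probe set choice and the limma fit.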

Additional observations from a re-analysis of the deposited data

How the results depend on the processing

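With 1 array per condition no replicate was left out, and signal near the floor and the array of shRNA cells in CSS limit every comparison that uses them. The conditions carry no replicate numbers, and the additive limma model takes each factor with the other as a block. Of the class medians under the alternatives 99 moved by under 0.1 on the log2 scale, 13 moved by more, and 2 of at least 0.1 in size turned in sign and moved by more. Among the first 2 counts 13 also changed sign, all of variants whose reported medians were at most 0.0405 in size. Quantile normalization without the array of shRNA cells in CSS changed the sign of 1 of these, of the variants for the shRNA in FCS, from 0.01 to -0.0070.

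In the values as deposited all probe sets shifted with that array, with a median of -0.28 for both treatments, -0.30 for the shRNA in CSS and -0.29 for serum in shRNA cells. The cluster medians there were -0.52, -0.15, which turned in sign from 0.11, and -0.44, and relative to the shift -0.24, 0.15 and -0.15. The variant medians were -0.11 with both treatments and, turned in sign from 0.15, -0.079 for the shRNA in CSS, and relative to the shift 0.17 and 0.22. The H2B median for serum stayed lower, at -0.36 in control and -0.75 in shRNA cells. Without _s_at and _x_at probe sets the cluster median for serum in control cells was -0.028, and the variant medians were 0.24 for serum in shRNA cells and 0.17 with both treatments. For serum in shRNA cells the cluster median was -0.13 over signals of at least 100 and -0.14 over the brightest probe set of each gene. A common median gave variant medians of 0.16 for serum in shRNA cells and 0.17 with both treatments, where the brightest probe set of each gene gave 0.15. Without probe sets that list a pseudogene, an alternative added later, variant medians were -0.16 for serum in control cells and 0.16 with both treatments.

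The counts past 2-fold are small and moved with most choices. A floor of 100 left 0 in each comparison and direction, as did signals of at least 100 except for 1 lower for serum in shRNA cells. At 1.5-fold, 3 were higher and 6 lower for serum in shRNA cells, 4 were higher with both treatments, 2 were lower for serum in control cells and 2 for the shRNA in CSS. Without a floor 2 were higher for serum in shRNA cells and 2 lower for the shRNA in CSS. As deposited, 5 were lower for serum in shRNA cells and 1 was higher for the shRNA in CSS. A common median gave 0 higher for the shRNA in CSS and 1 lower with both treatments. The brightest probe set of each gene gave 1 higher for the shRNA in CSS, and 1 lower for serum in shRNA cells and with both treatments. Without _s_at and _x_at probe sets 1 was higher for the shRNA in CSS, and 0 were lower in the comparisons that use the array of shRNA cells in CSS. With the 4 probe sets that also list a microRNA, added later, 2 were lower for the shRNA in CSS.

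In limma, signals of at least 100 gave 2 histone probe sets lower in CSS, of H1-2 and H2BC12L (lowest adjusted p = 0.0150), and 1 of H3.3 lower with the shRNA (adjusted p = 0.0248), of 269 and 449 calls among 6109 probe sets. No floor gave 2 lower in CSS, H1-2 and H2BC12, of 263 calls. Probe sets above the floor on all 4 arrays gave 3 lower in CSS and 1 higher with the shRNA, of 331 and 489 calls. There the prior degrees of freedom were infinite, as without a floor, and variances followed the trend over all probe sets alone. Without the trend there were no calls, and as deposited none among histones of 31 and 40.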
